A study of Mus musculus with 8 samples.

Results

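The genes described are 4 caspase genes (Casp2, Casp6, Casp8 and Casp9), the apoptosome gene Apaf1 and 3 genes of inhibitor of apoptosis proteins (Xiap, Birc2 and Birc3). These 8 members were picked by gene symbol from the 47729 genes of the deposited count table, and each symbol matched 1 row. They were compared between leukaemic marrow cells with an shRNA against Fubp1 and leukaemic marrow cells with a scrambled shRNA. All 8 had enough reads to be tested.

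Caspases are cysteine proteases that cut their substrates after aspartate and carry out apoptosis. Initiator caspases are activated on assembled platforms: Casp8 on death receptors at the cell surface, Casp9 on the apoptosome that Apaf1 forms with cytochrome c released from mitochondria, and Casp2 on the PIDDosome. They activate executioner caspases, among them Casp6, and inhibitor of apoptosis proteins restrain the process. Xiap binds and blocks caspases directly, while Birc2 and Birc3 act mainly as ubiquitin ligases in tumour necrosis factor receptor signalling, where they also hold the alternative NF-kB pathway in check. In chronic myeloid leukaemia the BCR-ABL1 kinase is known to protect cells from apoptosis.

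The knockdown group was 4 mice transplanted with marrow that carried BCR-ABL1 and the Fubp1 shRNA, and the scrambled group was 4 mice transplanted with marrow that carried BCR-ABL1 and a scrambled control shRNA, all on the C57BL/6 strain. In both groups the donors had been given 5-fluorouracil, the marrow was transduced with a BCR-ABL1 retrovirus marked by red fluorescent protein and an shRNA lentivirus marked by Venus, and the recipients were irradiated with a sublethal 900 cGy. Live marrow cells that were lineage-negative and positive for both reporters were sorted, so each library holds the transduced cells of 1 mouse, and ages were not given in the labels. BCR-ABL1 came from a retrovirus added to mixed marrow cells and not from the endogenous gene. FUBP1 binds nucleic acids and is best known for regulating Myc, and the study asked what its knockdown changes in this model of chronic myeloid leukaemia.

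Libraries held 22465303 to 44761356 counts, and a CPM value is a read count divided by the scaled size of its library. Fubp1 itself measured 281, 228, 220 and 239 CPM in Fubp1 shRNA replicates 1 to 4, against 296, 284, 291 and 396 CPM in scrambled replicates 1 to 4, which gave a log2 fold change of -0.39 with an SE of 0.12 and just missed the threshold over all genes (edgeR, adjusted p = 0.0604; DESeq2, adjusted p = 0.0145). All 4 knockdown libraries thus lay below all 4 scrambled ones, although replicate 1 (281 CPM) came near the lowest scrambled library (284 CPM). Such a gap in the lower direction occurred in 11.1% of all tested genes. With each library left out in turn, edgeR called Fubp1 in 0 of 8 fits. Fubp1 shRNA replicate 3 stood apart from its group: on the first principal component, with 61.1% of the variance, it lay at 29.0, among the scrambled libraries (13.7 to 57.3), and the other Fubp1 shRNA libraries lay between -81.2 and -34.1. On the second component, with 13.7% of the variance, it lay at 42.5, above every other library, and the scrambled libraries lay between -30.4 and 0.11. For the lineage-negative label, 9 of 10 T and NK cell markers stayed under 1 CPM in every library, and Cd3e among them had no counts. The exception was Nkg7, which reached 86.6 CPM in Fubp1 shRNA replicate 4. For Nkg7 the knockdown libraries ranked as for the early granulocyte transcripts given below, whose part in its level was not tested. Of 11 mature neutrophil markers Ly6g had at most 0.0278 CPM and S100a9 up to 10.2 CPM. Summed monocyte and macrophage markers (10 genes, 0 of 5 tested called by edgeR, 4 at an unadjusted p under 0.05) were 110.2, 24.1, 10.03 and 143 CPM in Fubp1 shRNA replicates 1 to 4, against 4.63 to 13.5 CPM in the scrambled libraries. The 14 erythroid markers summed to 7371 to 11688 CPM with the Fubp1 shRNA and 9303 to 10383 CPM with the scrambled one (3 of 14 higher, 5 lower). The 5 lower ones were Gata1, Klf1, Epor, Car2 and Ermap, and the 3 higher ones were Hbb-bs, Hbb-bt and Alas2. In each of these the groups did not overlap, so the overlapping sum hides changes in both directions. Early granulocyte transcripts (7 markers with Mpo and Elane, 0 of 7 called by edgeR, 7 at an unadjusted p under 0.05) summed to 1973, 949.7, 86.7 and 3609 CPM in Fubp1 shRNA replicates 1 to 4, against 35.9, 165, 333 and 84.1 CPM in scrambled replicates 1 to 4. Summed progenitor markers were 672 to 949 CPM with the Fubp1 shRNA and 962 to 1275 CPM with the scrambled one, and megakaryocyte markers summed to 132 to 214 and 68.6 to 86.7 CPM, with no overlap in either list (1 of 8 progenitor genes lower, 2 of 6 tested megakaryocyte genes higher). The largest part of the lower progenitor sum was Lmo2, at 212 to 231 CPM with the Fubp1 shRNA and 420.1 to 471 CPM with the scrambled one. Kit, Gata2 and Myb also had lower estimates (log2 fold change -0.86, -0.41 and -0.33, none called). Runx1, Cd48, Cd34 and Flt3 had higher estimates, and the list's median log2 fold change was 0.15. Over all tested genes edgeR called 8.02% higher and 7.29% lower. In sorted bulk samples, fewer cells of a type and less RNA per cell cannot be told apart.

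Of the 8 members, 1 rose and 1 fell in the knockdown. Birc3 was 2.11 times as high, and Casp6 was at 64.0% of the scrambled level. Casp2, Casp8, Casp9, Apaf1, Xiap and Birc2 did not pass the test, and their estimates lay between -0.21 and 0.33 on the log2 scale. Calls are at an adjusted p of 0.05 by edgeR's quasi-likelihood test over 13462 genes. That test called 15.3% of all tested genes, 8.02% higher and 7.29% lower and no statement about the family as a whole is made from 2 calls among 8 genes. The median log2 fold change was -0.09 over the 8 members and 0.0012 over all tested genes. In the authors' deposited table, where 21.3% of genes with an adjusted p were called (11.9% higher, 9.43% lower), the same 2 members passed, Birc3 with a log2 fold change of 0.95 (adjusted p = 0.000399) and Casp6 with -0.63 (adjusted p = 2.2e-05). Neither reached the further limit on fold change, 1 on the log2 scale in either direction, that the series' design text sets for candidate genes. They were also the 2 called by DESeq2 run on the counts, which called 13.1% of genes higher and 10% lower, and by limma-voom, which called 6.25% higher and 6.84% lower.

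**Figure D1:**
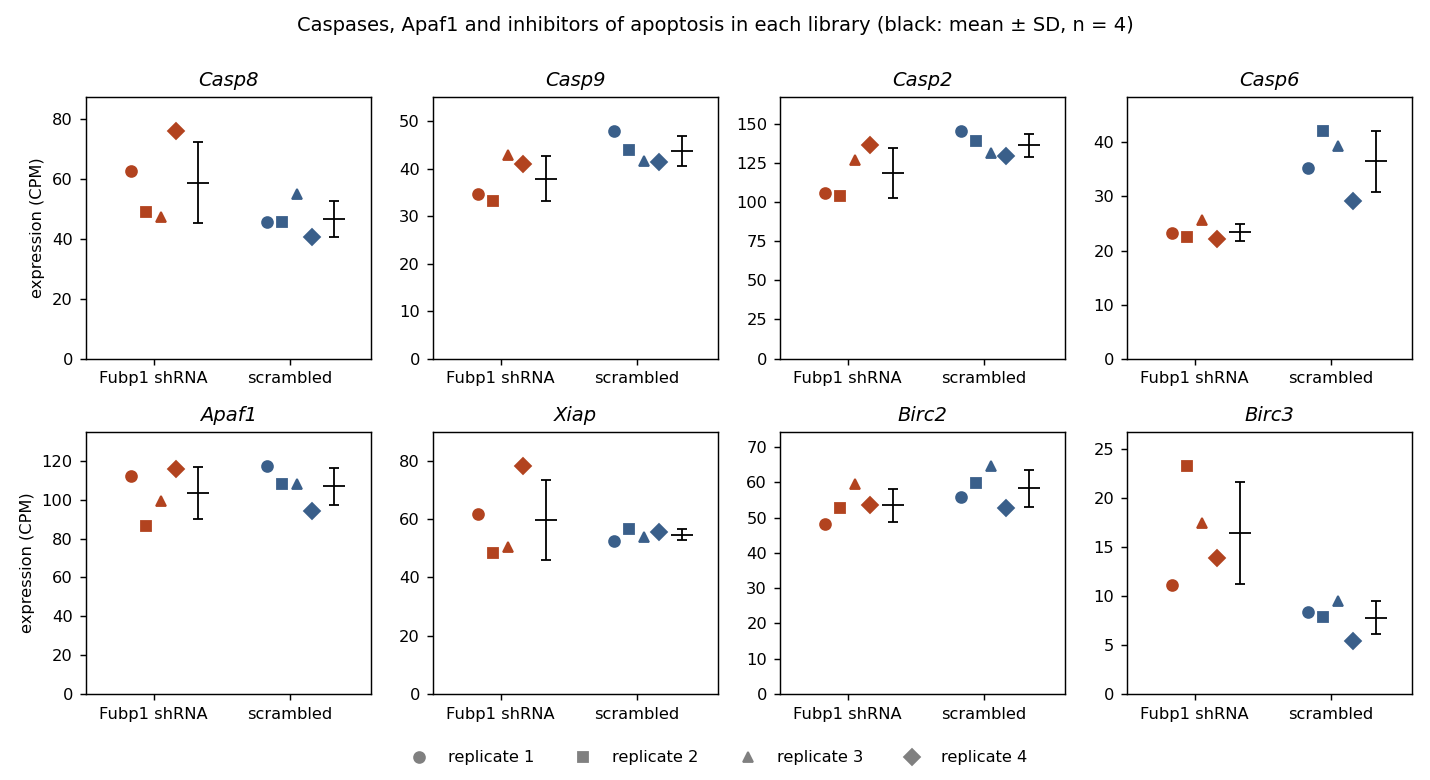
Expression of the 8 genes in CPM (y axis, from 0) in each of the 4 Fubp1 shRNA and 4 scrambled libraries (x axis); symbols mark the replicate and black bars the mean ± SD. Birc3 and Casp6 are the genes whose groups do not overlap.

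**Figure D2:**
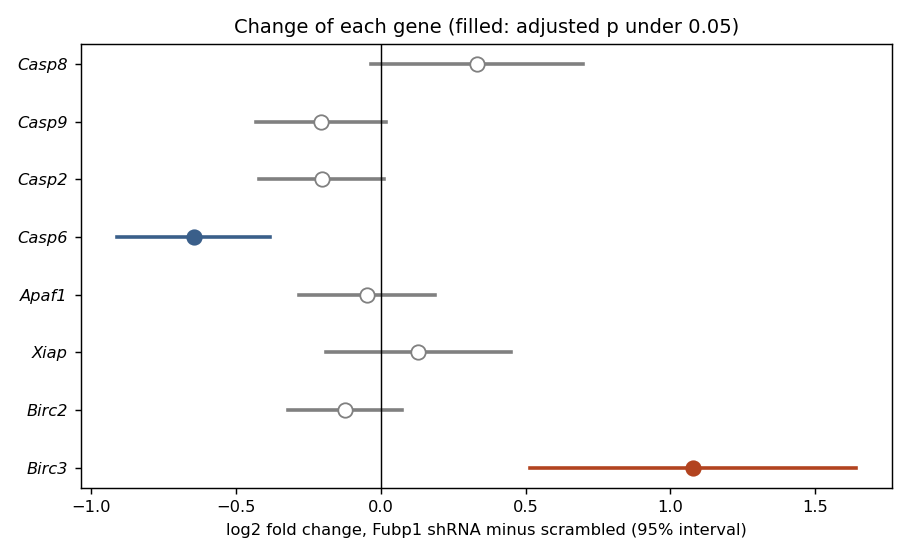
Log2 fold change, Fubp1 shRNA minus scrambled (x axis), of each gene with its 95% interval from edgeR's fit. The intervals of Casp6 (-0.91 to -0.38) and Birc3 (0.51 to 1.64) lie clear of 0, and those of the other 6 genes include it.

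Among the initiator caspases, Casp8, which transmits death receptor signals, was higher in some knockdown libraries only. It measured 62.7, 49.0, 47.3 and 76.1 CPM in Fubp1 shRNA replicates 1 to 4, against 45.5, 45.5, 55.1 and 40.7 CPM in scrambled replicates 1 to 4. Replicates 1 and 4 of the knockdown lay above every scrambled library, and replicates 2 and 3 lay within the scrambled range. The log2 fold change was 0.33 (SE 0.16, 95% interval -0.03 to 0.70), with an adjusted p of 0.186 by edgeR, and the exact permutation test (two-sided) gave p = 0.143. The knockdown libraries ranked for Casp8 as they did for early granulocyte transcripts, with replicate 4 highest, then replicates 1, 2 and 3, and the part of those cells in the Casp8 level was not tested. Without replicate 4 the estimate was 0.18, and without replicate 3 it was 0.41. The gene lies on chromosome 1 from 58795374 to 58847503 on the plus strand (GENCODE annotation of GRCm38; the sources used here do not give the build behind the counts). Of its transcripts' 50-base words 4.37% also occur in the transcript Gm20257, which stayed between 1.22 and 1.69 CPM in all libraries.

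Casp9, the initiator of the mitochondrial route, measured 34.6, 33.1, 42.9 and 41.0 CPM in Fubp1 shRNA replicates 1 to 4, against 48.0, 44.0, 41.6 and 41.4 CPM in scrambled replicates 1 to 4. Its log2 fold change was -0.21 (SE 0.10, 95% interval -0.43 to 0.02, adjusted p = 0.180 by edgeR; exact permutation p = 0.114). Replicates 1, 2 and 4 of the knockdown were below all scrambled libraries and replicate 3 was within their range. Casp2, the PIDDosome caspase, behaved much alike in size: 106, 104, 127 and 137 CPM in Fubp1 shRNA replicates 1 to 4, against 146, 139, 131 and 130 CPM in scrambled replicates 1 to 4. Its log2 fold change was -0.20 (SE 0.10, 95% interval -0.42 to 0.01, adjusted p = 0.172 by edgeR; exact permutation p = 0.114). Here replicate 4 of the knockdown, at 137 CPM, was the one inside the scrambled range. Casp9 spans 141793612 to 141815976 on chromosome 4 and Casp2 spans 42264985 to 42282508 on chromosome 6, both on the plus strand. Of the exon bases of Casp9, 94 (1.81%) overlap exons of Cela2a and Ctrc on the other strand, and reads there cannot be told apart without a stated strand setting.

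Casp8 and Casp9 reads were also counted against each other within a library, which is free of any scaling between libraries. Their ratio lay above the scrambled range in 3 of 4 knockdown mice. Neither gene was called, their estimates had opposite signs, and no test was run on the ratio. There were 181, 148, 110 and 186 Casp8 reads per 100 Casp9 reads in Fubp1 shRNA replicates 1 to 4, against 94.8, 103, 132 and 98.4 in scrambled replicates 1 to 4. Only replicate 3 of the knockdown lay inside the scrambled range, and it is also the knockdown library with the fewest early granulocyte transcripts, whose part in the ratio was not tested. Apaf1, the scaffold that recruits Casp9, measured 112, 86.5, 99.5 and 116 CPM in Fubp1 shRNA replicates 1 to 4, against 117, 108, 108 and 94.1 CPM in scrambled replicates 1 to 4. These ranges overlapped almost wholly, and the log2 fold change was -0.05 (SE 0.10, adjusted p = 0.792 by edgeR). Its 95% interval, -0.28 to 0.19, leaves room for changes of that size in either direction. Apaf1 lies on chromosome 10 from 90989311 to 91082770 on the minus strand.

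Casp6, an executioner caspase known to cut nuclear lamins, fell in every knockdown mouse. It measured 23.3, 22.5, 25.6 and 22.1 CPM in Fubp1 shRNA replicates 1 to 4, against 35.3, 42.2, 39.4 and 29.2 CPM in scrambled replicates 1 to 4. The knockdown libraries lay close to each other and all below the lowest scrambled library, although scrambled replicate 4 came near them. Means were 23.4 ± 1.57 CPM with the Fubp1 shRNA and 36.5 ± 5.62 CPM with the scrambled one (SD, n = 4 each), a log2 fold change of -0.65 (SE 0.12, 95% interval -0.91 to -0.38, adjusted p = 0.0120 by edgeR). The exact permutation test gave p = 0.0286, the smallest that 4 against 4 libraries allow, and the groups failed to overlap in 20.7% of all tested genes (9.54% higher, 11.1% lower). The call held with each library left out in turn (estimates from -0.76 to -0.58, adjusted p up to 0.0447). The sums of progenitor and of megakaryocyte markers separate the groups as Casp6 and Birc3 do. So do single erythroid markers, 5 of 14 lower and 3 higher with the Fubp1 shRNA, although their sum overlaps. The part of progenitors, megakaryocytes, erythroid cells or early granulocytes in either call was not tested. Casp6 lies on chromosome 3 from 129901425 to 129914103 on the plus strand, overlaps no other annotated exon, and 1 of its 5491 transcript words of 50 bases occurs in another gene.

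Xiap, the direct caspase inhibitor, measured 61.7, 48.4, 50.4 and 78.1 CPM in Fubp1 shRNA replicates 1 to 4, against 52.3, 56.5, 53.9 and 55.5 CPM in scrambled replicates 1 to 4. The knockdown libraries lay on both sides of a narrow scrambled range, 2 above it and 2 below it. Group means were 59.6 ± 13.6 and 54.5 ± 1.85 CPM (SD, n = 4 each), and the log2 fold change was 0.13 (SE 0.14, 95% interval -0.19 to 0.45, adjusted p = 0.564 by edgeR). Replicates 4 and 1, the high ones, were also those with the most early granulocyte transcripts, and without replicate 4 the estimate was -0.032. Xiap lies on the X chromosome from 42059679 to 42109656 on the plus strand.

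**Figure D3:**
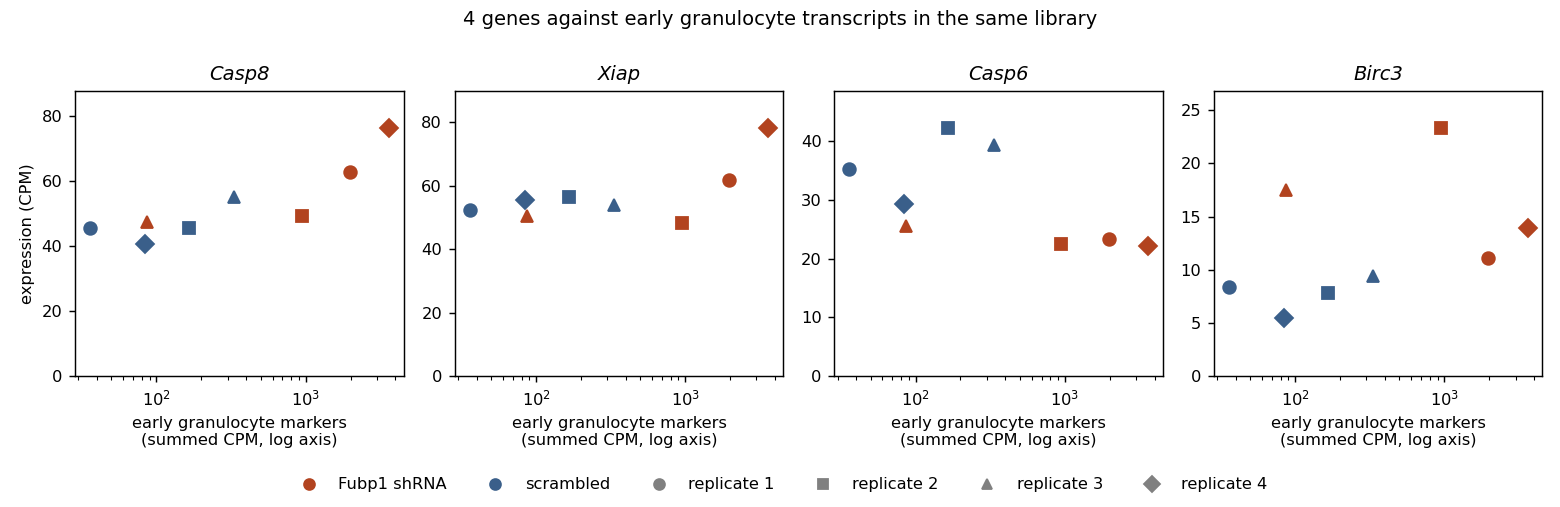
Expression of Casp8, Xiap, Casp6 and Birc3 in CPM (y axes, from 0) against the summed CPM of 7 early granulocyte markers (x axis, log scale) in the same library, with replicates marked by symbol. Casp8 and Xiap were highest in Fubp1 shRNA replicates 4 and 1, at the right, while Casp6 was low and Birc3 high in all 4 Fubp1 shRNA libraries.

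Birc2 and Birc3 are neighbours on chromosome 9, transcribed from the same strand (minus) with 11.6 kb and 0 annotated genes between them, and their proteins are close relatives. Birc3 rose in the knockdown and Birc2 did not pass the test. Birc3, in background knowledge a target of NF-kB as well as a regulator of it, measured 11.1, 23.3, 17.5 and 13.9 CPM in Fubp1 shRNA replicates 1 to 4, against 8.41, 7.82, 9.45 and 5.44 CPM in scrambled replicates 1 to 4. Every knockdown library lay above every scrambled one, and the knockdown libraries differed from each other by more than the scrambled ones did. Means were 16.4 ± 5.25 CPM with the Fubp1 shRNA and 7.78 ± 1.70 CPM with the scrambled one (SD, n = 4 each). The log2 fold change was 1.08 (SE 0.25, 95% interval 0.51 to 1.64, adjusted p = 0.0255 by edgeR; exact permutation p = 0.0286). These values rest on 121 to 705 reads per library. The call ended without Fubp1 shRNA replicate 2, the highest library (log2 fold change 0.86, adjusted p = 0.0562), and without scrambled replicates 1, 2 or 3 (estimates 1.10, 1.07 and 1.17, adjusted p = 0.0674, 0.0822 and 0.0548). Without Fubp1 shRNA replicate 3 it was 1.04 (adjusted p = 0.0305). Replicates 2 and 3, the knockdown libraries with the most Birc3, were also the highest of all 8 libraries for summed immediate early genes, which respond to sample handling. The sums were 5890 and 6358 CPM, against 3300 and 2378 CPM in Fubp1 shRNA replicates 1 and 4 and 2038 to 4411 CPM in the scrambled libraries. Of those 11 genes 0 were called by edgeR, and 3 had an unadjusted p under 0.05. These 3 did not share a direction: Atf3 and Nr4a1 had higher estimates (log2 fold change 1.83 and 1.69) and Hspa1b a lower one (-1.89). The part of the 11 genes in the Birc3 level was not tested.

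Birc2, the more abundant neighbour, measured 48.1, 52.8, 59.6 and 53.7 CPM in Fubp1 shRNA replicates 1 to 4, against 55.9, 59.9, 64.6 and 52.7 CPM in scrambled replicates 1 to 4. The ranges overlapped, with a log2 fold change of -0.12 (SE 0.09, 95% interval -0.32 to 0.07, adjusted p = 0.358 by edgeR). Within libraries there were 23.1, 44.1, 29.3 and 25.9 Birc3 reads per 100 Birc2 reads in Fubp1 shRNA replicates 1 to 4, against 15.03, 13.1, 14.6 and 10.3 in scrambled replicates 1 to 4. The ratio was thus higher in all 4 knockdown libraries than in any scrambled one, whatever the scaling between libraries. Birc2 spans 7818227 to 7837064 and Birc3 spans 7848699 to 7873186. The pair share 65 transcript words of 50 bases, of 4579 in Birc2 and 5079 in Birc3. Of the Birc3 words 7.56% occur in some other gene, most of all in Gm7019, which had at most 0.0991 CPM in any library.

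**Figure D4:**
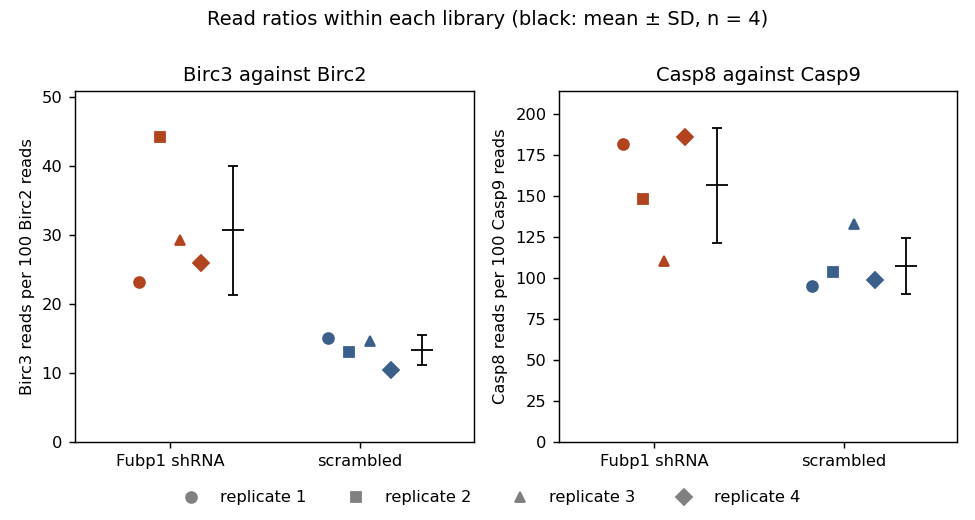
Reads of Birc3 per 100 reads of Birc2 (left) and of Casp8 per 100 reads of Casp9 (right) in each library, with the mean ± SD in black. The Birc3 ratio runs from 23.1 to 44.1 with the Fubp1 shRNA and from 10.3 to 15.03 with the scrambled shRNA, with no overlap, whereas the Casp8 ratio of Fubp1 shRNA replicate 3 (110) lies among the scrambled libraries.

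The promoters of the 2 genes that passed the test and of the neighbour Birc2 are shown because the neighbours lie so close and yet their values differed. Each window runs from 250 bases before to 50 bases after a start site (RefSeq, GRCm38.p6), 5′ to 3′ on the gene's strand, with CG pairs in capitals. The windows are chr9:7873121-7873420 (minus strand) for Birc3, chr9:7837008-7837307 (minus strand) for Birc2, the upstream one of its 2 windows, and chr3:129901165-129901464 (plus strand) for Casp6.
Birc3: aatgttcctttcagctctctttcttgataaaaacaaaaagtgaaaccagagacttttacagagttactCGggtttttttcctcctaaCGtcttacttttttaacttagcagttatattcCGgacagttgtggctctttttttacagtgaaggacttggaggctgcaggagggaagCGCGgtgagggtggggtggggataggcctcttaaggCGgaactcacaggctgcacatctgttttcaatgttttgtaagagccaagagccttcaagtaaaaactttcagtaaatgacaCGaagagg
Birc2: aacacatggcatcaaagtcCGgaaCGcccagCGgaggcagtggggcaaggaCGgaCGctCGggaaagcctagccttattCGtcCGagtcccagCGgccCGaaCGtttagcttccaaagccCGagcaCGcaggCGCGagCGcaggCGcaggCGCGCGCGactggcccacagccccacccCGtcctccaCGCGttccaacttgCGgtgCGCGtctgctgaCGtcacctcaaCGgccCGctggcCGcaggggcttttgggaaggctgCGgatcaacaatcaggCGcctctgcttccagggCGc
Casp6: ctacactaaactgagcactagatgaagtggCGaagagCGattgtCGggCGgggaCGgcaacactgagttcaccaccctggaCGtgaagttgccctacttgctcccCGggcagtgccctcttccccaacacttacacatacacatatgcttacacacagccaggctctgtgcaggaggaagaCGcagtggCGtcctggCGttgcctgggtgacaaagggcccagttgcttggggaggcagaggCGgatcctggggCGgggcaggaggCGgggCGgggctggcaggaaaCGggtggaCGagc
Birc3 has 7 CG pairs and 43.0% G and C, against 34 pairs and 67.0% in Birc2 and 16 pairs and 62.0% in Casp6. The median of 32851 mouse promoter windows was 7 pairs and 52.7%. The quartiles were 3 and 20 pairs, and 45.7% and 61.7%, so that Birc3 was at the median in CG pairs and below the lower quartile in G and C. Casp8 had 5 pairs and 42.0%, while Casp2, Casp9 and Apaf1 had 26, 28 and 46 pairs and the 3 windows of Xiap had 20, 5 and 2. On both strands, the loose form of the NF-kB motif, GGGNNNNNCC, occurs once in the Birc3 window and not in that of Birc2. In Casp6 it occurs as 2 overlapping matches on opposite strands, and 50.8% of all windows hold it. Members that were not called hold it too: Casp2, Casp9 and Apaf1 had 1, 2 and 4 matches. The windows of Xiap had 9, 0 and 0, and Casp8 had 0. The stricter kB consensus is a subset of that form found in 8.46% of windows. It has no match in the Birc3, Birc2 and Casp6 windows and 1 in Xiap. The STAT motif TTCNNNGAA (8.30%) and the MYC E-box CACGTG (7.15%) have no match in the Birc3, Birc2 and Casp6 windows either. A missing match says only that these letters are not there.

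Levels were ranked between genes after division by the joint length of all annotated exons of each gene. The length of the transcripts expressed in these cells was not measured, so the order is approximate. Per kilobase, with the Fubp1 shRNA, the order was Casp8 (20.3 ± 4.64 CPM per kb), Casp2 (16.8 ± 2.28), Birc2 (11.7 ± 1.03), Apaf1 (11.5 ± 1.47), Casp9 (7.29 ± 0.915), Xiap (6.30 ± 1.44), Casp6 (4.18 ± 0.282) and Birc3 (3.28 ± 1.05; SD, n = 4 each). With the scrambled shRNA it was Casp2 (19.3 ± 1.04 CPM per kb), Casp8 (16.1 ± 2.08), Birc2 (12.7 ± 1.12), Apaf1 (11.8 ± 1.06), Casp9 (8.41 ± 0.593), Casp6 (6.54 ± 1.01), Xiap (5.76 ± 0.195) and Birc3 (1.55 ± 0.339; SD, n = 4 each). With the Fubp1 shRNA the library ranges overlapped between Casp8 and Casp2, Birc2 and Apaf1, Casp9 and Xiap, and Casp6 and Birc3, so these pairs have no order. With the scrambled shRNA neighbours overlapped from Casp2 down to Apaf1 and between Casp6 and Xiap, and Birc3 lay below all others.

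Of the other genes of these pathways, 65 had a row in the table and 57 could be tested, of which 8 rose and 3 fell. At 11 of 57 this is near the 15.3% of all tested genes, and nothing is read from the total or from the counts of single lists. Of the remaining caspases, 0 of 5 tested genes were called by edgeR, with 4 at an unadjusted p under 0.05, where 33.5% of all tested genes were. DESeq2 called 3 of them higher and 1 lower, and limma-voom called 0. The inflammatory caspase Casp1 measured 8.62, 7.003, 2.09 and 17.3 CPM in Fubp1 shRNA replicates 1 to 4, against 1.44, 1.82, 3.84 and 1.17 CPM in scrambled replicates 1 to 4 (adjusted p = 0.0600 by edgeR), in the same order of knockdown libraries as the early granulocyte transcripts. Casp4 and Casp12 missed the threshold (adjusted p = 0.0924 and 0.427), and Casp14 had no counts.

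Among the other inhibitors and their antagonists, 1 of 9 tested genes rose and 1 fell (of all tested genes, 8.02% and 7.29%). Birc6, a giant ubiquitin-conjugating inhibitor, rose slightly, to 417 ± 20.1 CPM with the Fubp1 shRNA, against 352 ± 19.1 CPM with the scrambled one (SD, n = 4 each; log2 fold change 0.24, SE 0.06, adjusted p = 0.0287 by edgeR). Birc5, or survivin, which works mainly in chromosome segregation, fell to 139.5 ± 13.8 CPM, against 184 ± 15.7 CPM (log2 fold change -0.40, SE 0.09, adjusted p = 0.0216 by edgeR). Neither gene's groups overlapped. The Birc5 call ended without Fubp1 shRNA replicate 1 or scrambled replicate 2 (adjusted p = 0.0507 and 0.0591), and that of Birc6 without Fubp1 shRNA replicates 1 or 4 or scrambled replicates 1, 2 or 3 (adjusted p up to 0.0809). The mitochondrial antagonists Diablo and Htra2 measured 81.4 ± 2.62 and 205 ± 24.4 CPM with the Fubp1 shRNA, against 88.2 ± 8.57 and 244 ± 28.2 CPM with the scrambled one (SD, n = 4 each), and missed the threshold (adjusted p = 0.316 and 0.134 by edgeR). Birc7 had no counts and Naip1 too few to test.

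In the apoptosome and execution list 1 of 10 tested genes rose and 1 fell (of all tested genes, 8.02% and 7.29%). Dfna5, also called gasdermin E, a pore-forming protein that executioner caspases cleave, rose to 9.12 ± 1.23 CPM with the Fubp1 shRNA, against 5.46 ± 0.368 CPM with the scrambled one (SD, n = 4 each; log2 fold change 0.74, SE 0.14, adjusted p = 0.0146 by edgeR). Dffb, the caspase-activated DNase, fell to 29.9 ± 1.88 CPM, against 36.9 ± 2.73 CPM (log2 fold change -0.30, SE 0.08, adjusted p = 0.0363 by edgeR). Neither gene's groups overlapped. The Dfna5 call ended without scrambled replicate 1 or 2 (adjusted p = 0.0506 and 0.0591), and that of Dffb ended whichever library was left out, except Fubp1 shRNA replicate 3 (adjusted p up to 0.100). Neither of the PIDDosome genes Pidd1 and Cradd, partners of Casp2, was called by edgeR (adjusted p = 0.532 and 0.128, with Cradd at an unadjusted p under 0.05). The cytochrome c gene Cycs had only 1.72 to 3.79 CPM, and since it has many processed pseudogenes its counts are uncertain (adjusted p = 0.127 by edgeR).

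Among the death receptor genes, which act upstream of Casp8, 2 of 11 tested rose and 1 fell (of all tested genes, 8.02% and 7.29%). Fas, a death receptor gene with low counts, fell: it had 0.363, 0.462, 0.476 and 0.348 CPM in Fubp1 shRNA replicates 1 to 4, against 1.14, 1.26, 1.14 and 1.30 CPM in scrambled replicates 1 to 4 (log2 fold change -1.55, SE 0.22, adjusted p = 0.00541 by edgeR). That is 9 to 16 reads per knockdown library and 29 to 44 per scrambled library, and the call held with each library left out in turn. Tnfrsf21, also called death receptor 6, rose to 90.0 ± 8.86 CPM with the Fubp1 shRNA, against 54.5 ± 15.98 CPM with the scrambled one (SD, n = 4 each; adjusted p = 0.0424 by edgeR). The receptor gene Tnfrsf1a measured 21.8, 11.4, 2.76 and 35.5 CPM in Fubp1 shRNA replicates 1 to 4, against 2.33, 3.11, 4.16 and 2.02 CPM in scrambled replicates 1 to 4 (log2 fold change 2.61, SE 0.68, adjusted p = 0.0399 by edgeR). Replicate 3 lay among the scrambled libraries, and the order of the knockdown libraries was that of the early granulocyte transcripts, whose part in this rise was not tested. The Tnfrsf1a call ended whichever library was left out, except Fubp1 shRNA replicate 3 (adjusted p up to 0.102). That of Tnfrsf21 did so except for Fubp1 shRNA replicate 3 and scrambled replicate 4 (adjusted p up to 0.109). The adaptor Fadd, which links the receptors to Casp8, measured 23.2 ± 0.461 CPM with the Fubp1 shRNA and 23.3 ± 1.99 CPM with the scrambled one (SD, n = 4 each), with a 95% interval of -0.19 to 0.18 for the log2 fold change. Cflar, the Casp8-like inhibitor, measured 25.0 ± 10.4 and 18.7 ± 2.89 CPM (adjusted p = 0.298 by edgeR).

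Of the genes that work with Birc2 and Birc3 in tumour necrosis factor receptor signalling and in necroptosis, the lytic death that Casp8 holds back, 2 of 12 tested rose and 0 fell. That is near the 15.3% of all tested genes. The 2 were Ripk3 and Mlkl. Ripk3, a kinase of necroptosis, measured 80.0, 82.6, 79.3 and 71.8 CPM in Fubp1 shRNA replicates 1 to 4, against 52.2, 43.8, 49.99 and 48.9 CPM in scrambled replicates 1 to 4. The groups were far apart and each was narrow, and the log2 fold change was 0.69 (SE 0.07, adjusted p = 0.00249 by edgeR), and the call held with each library left out in turn. Mlkl, the pore-former that Ripk3 phosphorylates, measured 36.5, 24.0, 21.5 and 38.5 CPM in Fubp1 shRNA replicates 1 to 4, against 15.4, 15.97, 19.3 and 11.8 CPM in scrambled replicates 1 to 4 (log2 fold change 0.94, SE 0.22, adjusted p = 0.0281 by edgeR). Its call ended without Fubp1 shRNA replicates 1 or 4 or any 1 scrambled library (adjusted p up to 0.0836), and its knockdown libraries ranked as they did for early granulocyte transcripts. Ripk1 and Traf2 measured 51.4 ± 4.79 and 50.5 ± 2.08 CPM with the Fubp1 shRNA, against 53.0 ± 2.89 and 54.0 ± 2.12 CPM with the scrambled one (SD, n = 4 each; adjusted p = 0.747 and 0.290 by edgeR). Map3k14, the kinase that Birc2 and Birc3 target for degradation, measured 2.18, 1.45, 0.666 and 5.62 CPM in Fubp1 shRNA replicates 1 to 4, against 0.167, 0.585, 0.805 and 0.135 CPM in scrambled replicates 1 to 4 (adjusted p = 0.0597 by edgeR). Knockdown replicate 3 lay within the scrambled range, and the knockdown libraries ranked as for early granulocyte transcripts, whose part was not tested. Traf1, an NF-kB target that binds Birc2 and Birc3, had 14, 28, 23 and 7 reads in Fubp1 shRNA replicates 1 to 4, against 2, 1, 9 and 0 reads in scrambled replicates 1 to 4, too few to test.

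In the inflammasome list, around Casp1 and Casp4, 2 of 8 tested genes rose and 0 fell (of all tested genes, 8.02% and 7.29%). The adaptor Pycard rose to 16.3 ± 2.55 CPM with the Fubp1 shRNA, against 9.96 ± 2.50 CPM with the scrambled one (SD, n = 4 each; adjusted p = 0.0469 by edgeR). Card9 measured 16.7, 8.75, 1.08 and 27.2 CPM in Fubp1 shRNA replicates 1 to 4, against 0.500, 1.48, 2.18 and 0.584 CPM in scrambled replicates 1 to 4 (adjusted p = 0.0407 by edgeR), again with replicate 3 among the scrambled libraries. Both genes ranked the knockdown libraries as the early granulocyte transcripts did, and the part of those cells in these values was not tested. The Pycard call ended whichever library was left out, except Fubp1 shRNA replicate 3 and scrambled replicate 4 (adjusted p up to 0.107). That of Card9 did so except for Fubp1 shRNA replicate 3 (adjusted p up to 0.102).

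**Figure D5:**
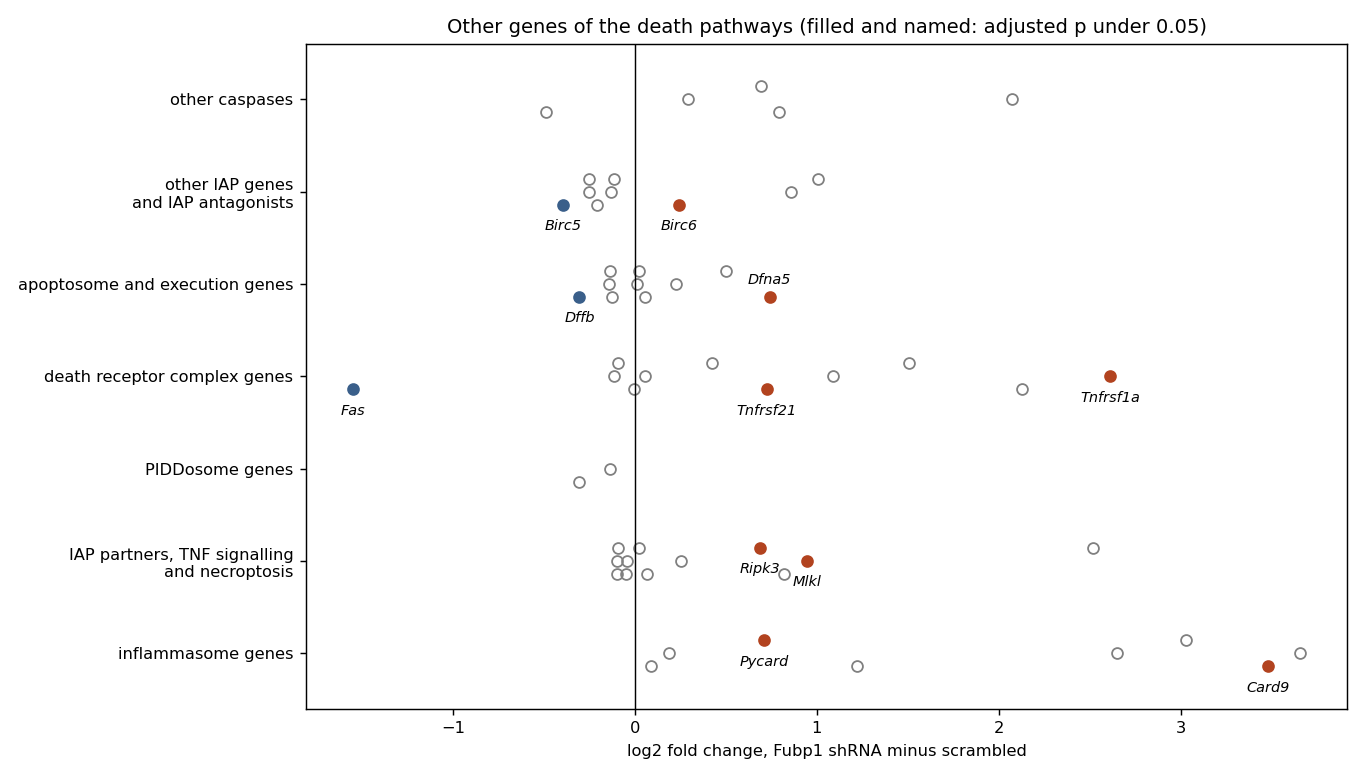
Log2 fold change, Fubp1 shRNA minus scrambled (x axis), of the 57 tested genes outside the 8 members, by list (y axis). Filled and named points are the 8 genes that rose and the 3 that fell at an adjusted p of 0.05, and open points are the 46 that missed it.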

How the data were processed

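The authors deposited whole-number read counts per gene with 1 column per library, and in the same table their own log2 fold changes, a Wald statistic as a score, p-values and a mean normalized signal, from DESeq2 1.18.1 (per the submitters' processing notes) in R 3.4.3 (per the series' design text). Per the labels' protocols, libraries came from 500 ng of RNA with a strand-marking kit that removes ribosomal RNA. The sources used here do not give the aligner, counter, strand setting or build.

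The deposited counts entered edgeR 4.0.16 (R 4.3.3): filterByExpr left 13462 genes, TMM factors scaled the libraries, and the robust quasi-likelihood F test had the group as its only term, and p-values were adjusted by Benjamini-Hochberg over these genes. Log2 fold changes are Fubp1 shRNA minus scrambled, and 95% intervals use the fit's standard error. Permutation tests are exact over the 70 splits of 8 libraries. Lengths and 50-base words come from the GENCODE annotation. The fits were tested on simulated data. Alternatives were DESeq2 1.42.0, limma-voom (limma 3.58.1), other scaling and filters, a replicate block and leaving out each library. Columns of per-sample values left unmatched numbered 0. Named were the 8 members, Fubp1, and the called genes of the pathway lists, plus listed genes chosen after their values were seen; some listed genes are not reported here. The members and lists were chosen with earlier results of these data known.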

Additional observations from a re-analysis of the deposited data

Results flagged for a closer look

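In 2 of the 40 groups of 4 libraries examined (20 genes), 1 library lay far from the other 3 of its group by Dixon's ratio; chance flags about 1 in 20 groups. Fubp1 measured 396 CPM in scrambled replicate 4, against 284 to 296 CPM in the other scrambled libraries. Pycard measured 6.25 CPM in the same library, against 10.7 to 11.5 CPM in the other scrambled libraries. None of the 8 caspase and inhibitor genes had such a library in either group.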

How the results depend on the processing

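Casp6 kept its direction and its call under all 14 alternatives (log2 fold change -0.76 to -0.58). Birc3 kept its direction under all 14 (0.86 to 1.23) and its call under 9. The other 6 members were called under none. Leaving out a library in turn moved Apaf1 between -0.12 and 0.032 (the sign changed without Fubp1 shRNA replicate 2) and Xiap between -0.032 and 0.22 (without Fubp1 shRNA replicate 4); the cause was not tested. Leaving out a library in turn gave 0 to 1 members higher, 1 to 2 in all, and over all genes 526 to 3425 called (275 to 1956 higher, 251 to 1469 lower), against 2062 (1080 and 982) with every library; each fit with 0 members higher had 1 to 2 higher at an unadjusted p below 0.05. The DESeq2 test called 3588 genes (2035 higher, 1553 lower). With the replicate number as a block, 400 genes were called (195 higher, 205 lower) and 1 member, with 0 members higher and 1 at an unadjusted p under 0.05 (Birc3 log2 fold change 1.05, adjusted p = 0.0653). Deviations of same-numbered libraries from their group means correlated at -0.56 to 0.022, so no pairing by number was seen in them. A smaller effect shared by number could be hidden under the other differences between libraries and was not tested. Of 280 values for 20 named genes over the alternatives, 207 kept direction and call, 69 lost the call, 2 gained it and 2 changed sign. Birc3 rests on the fewest reads of the members, 121 to 705 per library.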

Other observations

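Nlrp1a, a sensor that activates Casp1, had 48, 13, 0 and 240 reads in Fubp1 shRNA replicates 1 to 4, against 0, 2, 9 and 1 reads in scrambled replicates 1 to 4, and did not pass the filter on low counts. Its knockdown libraries ranked as they did for early granulocyte transcripts, whose part was not tested. The stromal collagen gene Col1a1 had 332 CPM in Fubp1 shRNA replicate 1 and at most 6.86 CPM in the other 7 libraries; that library was the lowest of its group for Birc3 and second for Casp8.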
